A study of Drosophila melanogaster with 12 samples.

Results

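Control testes were compared with control ovaries of Drosophila melanogaster in 6 of the series' 12 RNA-seq libraries, 3 of each gonad, picked by their titles and tissue labels; the other libraries came from Tdrd5l mutant gonads. The testes came from 1 to 2 day old males and the ovaries from 0 to 1 day old females. Both sexes carried the genotype labelled cas9 iso, the line that served as the control for the mutant, and were raised at 25 °C. The labels give 3 biological replicates for each genotype, and 200 ng of RNA went into each library, which the TruSeq RNA Library Prep kit v2 turned into cDNA. Testis RNA was ribodepleted, whereas ovary RNA is labelled as poly(A) selected and was purified with the Direct-zol micro prep kit. The RNA selection, the purification and the age therefore differ exactly where the tissue differs, and their effects cannot be told apart from that of the tissue. In whole gonads, fewer cells of one type and less RNA per cell also cannot be told apart. The comparison asks which genes are used differently by the male and the female gonad.

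The Drosophila testis is filled mainly with spermatocytes and spermatids, wrapped in a muscle sheath. Spermatocytes switch on a large set of genes that are used nowhere else in the fly, many of them copies of genes that other tissues also use. They do so with testis forms of TFIID subunits (tTAFs) and with the testis meiotic arrest complex (tMAC). The ovary of a newly eclosed female holds germline stem cells and egg chambers, in which nurse cells load the oocyte with RNAs that pattern the embryo, while follicle cells make yolk proteins and the eggshell.

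The deposited gene counts summed to 1390699, 1691857 and 2228627 in the 3 testis libraries, against 969812, 841428 and 772292 in the 3 ovary libraries. These counts were a small part of what had been counted, since only 3.33% to 3.99% of unique alignments in testes and 2.05% to 2.31% in ovaries were given to a gene. Of the unique alignments, 95.9% to 96.6% in testes and 97.6% to 97.9% in ovaries fell in no annotated feature, and only 0.0662% to 0.0899% in testes and 0.0413% to 0.0473% in ovaries were ambiguous between features. The sources used here give no strand setting for the counting, and the library kit is not a strand-marking one, yet features on opposite strands held very unequal counts. The 309 annotated antisense RNAs that face another gene over at least 50% of their exons summed to 779052 counts in testes and 999459 in ovaries, against 225279 and 31917 for the 305 genes they face. cup and BicC, both needed for oogenesis, had 0 counts in all 6 libraries. How the reads were divided between the strands cannot be told from these sources, so that every value below is a level of counted reads, which may be a small part of a gene's reads, and 0 counts do not show that a gene was not transcribed. The tissue difference of a gene can in the same way hold reads of what lies on its other strand. Genes whose exons lie opposite those of another gene, 4463 of the 17252 features found in the annotation, are named here as having an opposite exon. Genes without one held 34.1% ± 3.81 of the counts in testes and 13.4% ± 3.74 in ovaries (SD, n = 3 each). The 3 values of each tissue did not overlap, and the exact two-sided permutation test gave p = 0.1, the smallest that 3 against 3 libraries allow. Control ovary replicate 1 stood apart from the other 2 ovary libraries: 17.6% of its counts lay in genes without an opposite exon, against 12.1% and 10.5%, and it held more ribosomal protein, muscle and hemocyte counts, as given with those genes below. Most genes known from the testis went with the tissue labels. All 71 annotated Y-linked features were at 0 in the 3 ovary libraries. Most of the sperm genes described below were at or near 0 there, but nsr was higher in ovaries. Genes known from the ovary divided. Of the tested chorion, eggshell and yolk genes, Cp7Fc, yellow-g2, yl and Yp1 were higher in ovaries, and Cp18, dec and Yp3 higher in testes.

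**Figure D1:**
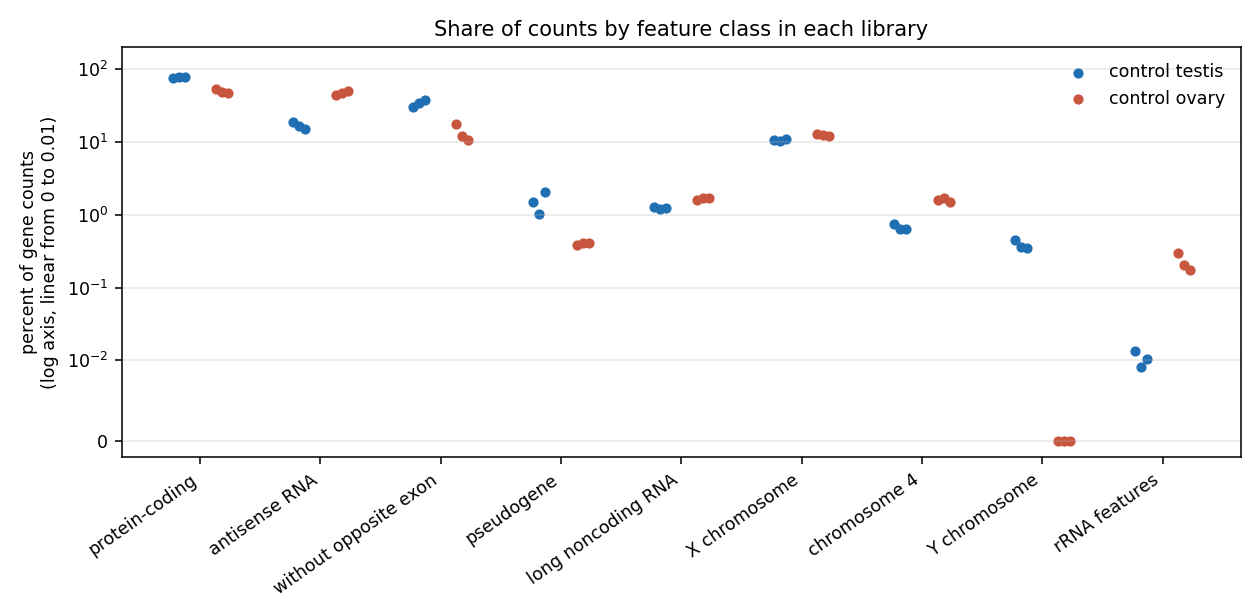
Share of all gene counts (percent, log axis that is linear below 0.01) held by feature classes in each library, control testis to the left of control ovary, with 1 point per library. The classes overlap, since genes without an opposite exon and the chromosomes cut across the biotypes. Protein-coding genes held 77.9% of counts in testes and 49.6% in ovaries, and annotated antisense RNAs 17.0% and 47.2%. Among genes without an opposite exon the protein-coding share was instead lower in testes and the noncoding share higher, as given with the processing.

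More genes were higher in the testis than in the ovary, and by larger steps. Of 17558 features, 8427 had enough counts to be tested, and edgeR's quasi-likelihood test called 6381 of them (75.7%) at a Benjamini-Hochberg adjusted p under 0.05, the source of every adjusted p given here. Of those, 4151 (49.3% of the genes tested) were higher in testes and 2230 (26.5%) higher in ovaries. The libraries of the 2 tissues did not overlap for 6627 genes (78.6%). With genes at 0 in one tissue set to the bound that 3 counts would give, the difference was 32-fold or more for 1251 genes called higher in testes and for 99 called higher in ovaries. There were 2282 features with counts in all 3 testis libraries and none in any ovary library, and 77 of the converse kind. The testis libraries were deeper, but thinned to the 772292 counts of the shallowest library they were still expected to show 12165 to 12672 features, against 8564 to 9659 in ovaries (exact permutation p = 0.1, the smallest possible). Counts were also spread over more genes in testes, where the 245 to 352 most counted features made up 50% of each library, against 100 to 152 in ovaries.

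The direction of small differences depended on how the libraries were scaled. The median log2 fold change of testis over ovary was 1.04 over the genes tested, 2.30 in the 4705 genes without an opposite exon and -0.51 in the 3565 genes with one. Among genes without an opposite exon, 2918 (62%) were higher in testes and 619 (13.2%) higher in ovaries. Among genes with one, 1157 (32.5%) were higher in testes and 1568 (44%) higher in ovaries. When the genes without an opposite exon were scaled and fitted alone, 2294 were higher in testes and 1167 in ovaries, and with upper quartile scaling of all genes the calls were 3581 and 2842. Without control ovary replicate 1, 4818 genes were higher in testes and 2329 in ovaries. In simulated counts with the same depths and spread, 88 of 100 genes changed 4-fold were recovered and 12 of 100 changed 2-fold. Only these genes among 7872 were changed there, whereas 75.7% of the genes tested were called in the libraries themselves. The adjusted threshold was therefore stricter in the simulation, and its shares do not carry over to these libraries. Counts per 1000000 (CPM) below are scaled with TMM factors, which correct the library sizes, and each log2 fold change is testis over ovary and is to be read against the median of 1.04.

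Genes of the sperm tail and of late spermatids were among those with the sharpest contrast between the gonads. All 6 sperm chromatin genes, all 15 tested cup and comet genes and all 7 sperm leucyl aminopeptidase genes were higher in testes, as were 15 of 16 tested sperm tail genes, beside 49.3% of all genes tested. The list medians were 9.44, 8.67, 11.04 and 10.66 on the log2 scale. Many members had 0 ovary counts, so the fitted values depend on the prior count, and with those genes set to the bound that 3 ovary counts would give the medians were 6.38, 5.79, 10.13 and 7.33. betaTub85D, the beta-tubulin of the sperm axoneme (chr3R:9408383-9410282 in the BDGP6.54 annotation, minus strand), had 2163, 3133 and 2933 CPM in the testis libraries, against 0 counts in the ovary libraries. The tissues did not overlap, and the difference was at least 2289-fold, against a floor of 3 counts over the ovary group (adjusted p = 1.48e-11). loopin-1 had 2439, 2706 and 3255 CPM in the testis libraries, against 0 counts in the ovary libraries. S-Lap1, one of the leucyl aminopeptidases that pack the mitochondrial derivative of the sperm tail, had 3486, 5604 and 5048 CPM in the testis libraries, against 0, 0 and 3.02 CPM in the ovary libraries, where 2 reads in 1 library made up its whole ovary signal. Mst87F, a cysteine-rich protein of the sperm tail that has an opposite exon over part of its length, had 1546, 1473 and 1962 CPM in the testis libraries, against 0 counts in the ovary libraries. Every testis library of these genes stood far above every ovary library, where the floor of 3 counts corresponds to 1.23 CPM. The exception among the sperm tail genes was nsr, which has an opposite exon and was lower in testes by a log2 fold change of -1.96 (adjusted p = 9.3e-06).

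Sperm chromatin genes, whose products replace the histones when the sperm nucleus is compacted, showed the same separation. Mst77F had 439, 657 and 675 CPM in the testis libraries, against 0 counts in the ovary libraries. The protamine ProtB had 91.5, 80.2 and 150.0 CPM in testes, against 0 counts in ovaries, and its neighbour and near copy ProtA had 33.7, 44.6 and 45 CPM in testes, against 0 counts in ovaries. Reads shared by ProtA and ProtB may have been left out or split, so the ratio of one to the other is uncertain, but neither gene had a read in any ovary library. The cup and comet genes are transcribed after meiosis, when most spermatid transcription has stopped. Of these, w-cup had 211, 259 and 330.1 CPM in testes, against 0 counts in ovaries, at least 226-fold higher (adjusted p = 2.13e-09), and soti had 84.2, 126 and 179 CPM in testes, against 0 counts in ovaries, at least 113-fold higher (adjusted p = 4.21e-08). The smallest difference among them was that of hale, at 2.00 on the log2 scale.

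**Figure D2:**
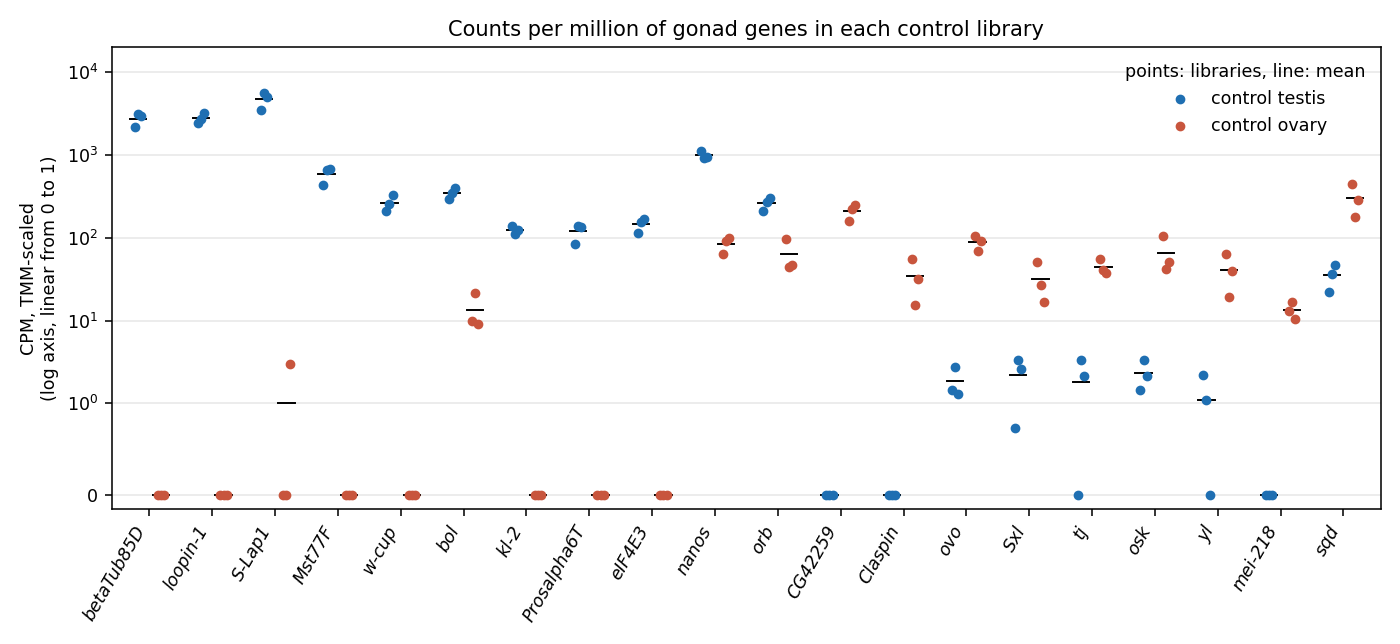
Scaled CPM (log axis that is linear below 1) of 20 gonad genes in each library, control testis to the left of control ovary, with 1 point per library and a line at the mean. Genes from betaTub85D to orb were higher in testes and genes from CG42259 to sqd higher in ovaries, with no overlap between the tissues for any of the 20.

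Of the regulators that switch on the spermatocyte programme, 2 of 3 tested tTAF genes and 7 of 10 tested tMAC and related genes were higher in testes, beside 49.3% of all genes tested. Among tTAF genes, nht had 19.8, 14.48 and 14.1 CPM in testes, against 0 counts in ovaries, and Taf12L had 9.51, 15 and 18.4 CPM in testes, against 0 counts in ovaries. Both were higher in testes (adjusted p = 4.62e-05 and adjusted p = 7.53e-05), at the least by 12.8-fold and 12.3-fold over the floor. A further tTAF, sa, had 19, 5.57 and 15.4 CPM in testes, against 9.0, 15.3 and 6.05 CPM in ovaries, with overlapping tissues and no call (adjusted p = 0.572). The tTAF gene can had 62 counts over the testis libraries and 0 over the ovary libraries and, like mia, did not pass the count filter. Of the other 3 tMAC and related genes, 1 was higher in ovaries and 2 were not called. Those higher in testes included topi, the zinc finger subunit found in the testis complex, with 22.7, 29 and 26.6 CPM in testes, against 3.0, 0 and 0 CPM in ovaries. The 1 higher in ovaries was mip130, a subunit that the complex shares with its counterparts in other cells, with 20.5, 12.8 and 23.6 CPM in testes, against 131, 138 and 162 CPM in ovaries. It has an opposite exon over a short stretch. Caf1-55, a histone-binding subunit of many complexes and without an opposite exon, had 15.4, 16.7 and 19.7 CPM in testes, against 25, 17.8 and 24.2 CPM in ovaries and was not called (adjusted p = 0.45).

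Of 6 tested genes of the male meiotic divisions, 4 were higher in testes and 1 higher in ovaries, beside 49.3% and 26.5% of all genes tested. fzo, the mitofusin that fuses spermatid mitochondria, had 38.8, 43.4 and 54 CPM in testes, against 0 counts in ovaries, at least 38.2-fold higher (adjusted p = 8.04e-07). bol, an RNA-binding protein required for entry into the divisions, had 296, 351 and 397 CPM in testes, against 10, 21.7 and 9.07 CPM in ovaries, a log2 fold change of 4.67 ± 0.36 (SE, adjusted p = 6.42e-09). twe, the meiotic Cdc25 phosphatase that acts in both sexes, had 79.8, 65.2 and 86.2 CPM in testes, against 55, 98.1 and 57.4 CPM in ovaries and was not called (adjusted p = 0.72). Before the divisions, bgcn, which restricts spermatogonial divisions with Bam, had 28.5, 44 and 42 CPM in testes, against 0, 0 and 1.51 CPM in ovaries, where a single read in 1 ovary library gave a ratio of 96.2 (95% counting interval 17.1 to 3817) and adjusted p = 2.26e-06. nanos, known in the fly for germline stem cell maintenance and for posterior patterning, had 1132, 921 and 939 CPM in testes, against 64, 91.7 and 99.7 CPM in ovaries, a log2 fold change of 3.56 ± 0.26 (SE, adjusted p = 3.44e-09). It has an opposite exon over part of its length. The stem cell factor stwl was lower in testes, with 21.2, 26.2 and 30 CPM in testes, against 57, 58.6 and 49.9 CPM in ovaries (log2 fold change -1.09 ± 0.34 (SE, adjusted p = 0.00868)).

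Copies of housekeeping genes separated the tissues more than the standard genes they derive from. All 12 tested testis proteasome paralogs and 16 of 20 testis respiratory chain paralogs were higher in testes, with list medians of 7.70 and 8.18 (5.40 and 4.84 with genes at 0 set to their bound). Of their standard partners, 5 of 9 proteasome genes and 5 of 18 respiratory chain genes were higher in testes, beside 49.3% of all genes tested. The partners' medians were 1.45 and 0.63, close to the median of all genes. Prosalpha6T, a copy of a 20S core subunit, had 84.9, 139.8 and 134 CPM in the testis libraries, against 0 counts in the ovary libraries. The standard gene Prosalpha6 had 24.1, 22.8 and 30.4 CPM in testes, against 27, 3.82 and 9.07 CPM in ovaries and was not called (adjusted p = 0.145). The paralog was at least 101-fold higher (adjusted p = 2.87e-08), and its 3 testis libraries stood above all 3 ovary libraries, while those of Prosalpha6 overlapped between tissues. Cyt-c1L, a copy of the cytochrome c1 subunit of complex III, had 30, 54.6 and 54 CPM in testes, against 0 counts in ovaries, at least 39.3-fold higher (adjusted p = 1.23e-06). Its standard gene Cyt-c1 was lower in testes, at -3.08 on the log2 scale (adjusted p = 3.95e-05). Not every copy followed: Cyt-c-d, UQCR-6.4L and COX5BL were lower in testes, at -3.11, -2.18 and -0.92 on the log2 scale, and of these Cyt-c-d and COX5BL have an opposite exon.

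Compared per kb of exon, many of the copies had more counted reads than their standard gene in testes. The part of a gene's reads that was counted may differ between genes, so this need not be the order of their RNA levels. The mean CPM per kb of the proteasome paralog exceeded that of its standard partner in 10 of 14 pairs in testes and in 0 of 14 in ovaries. For the respiratory chain this held for 11 of 19 pairs in testes and 1 of 19 in ovaries, and for the cap-binding translation factors in 4 of 6 and 0 of 6. The order was the same in every testis library for 9, 10 and 3 of those pairs. Cyt-c1L had 35.7 CPM per kb in testes against 3.13 for Cyt-c1, and in ovaries the values were 0 and 26.4. eIF4E3, a cap-binding protein of spermatocytes, had 140.1 CPM per kb in testes against 54.8 for eIF4E1, the form used throughout the fly, and 0 against 28.8 in ovaries. By libraries, eIF4E3 had 115, 155 and 167 CPM in the testis libraries, against 0 counts in the ovary libraries, at least 122-fold higher (adjusted p = 1.24e-08). Prosalpha3T was a case of the other kind, with 14.2 CPM per kb in testes against 89.4 for Prosalpha3. Where a standard gene has an opposite exon the order is uncertain; among pairs in which neither gene has one, the paralog was denser in testes in 2 of 5 proteasome, 8 of 9 respiratory chain and 4 of 6 cap-binding pairs, and in ovaries in 0 pairs of each kind.

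**Figure D3:**
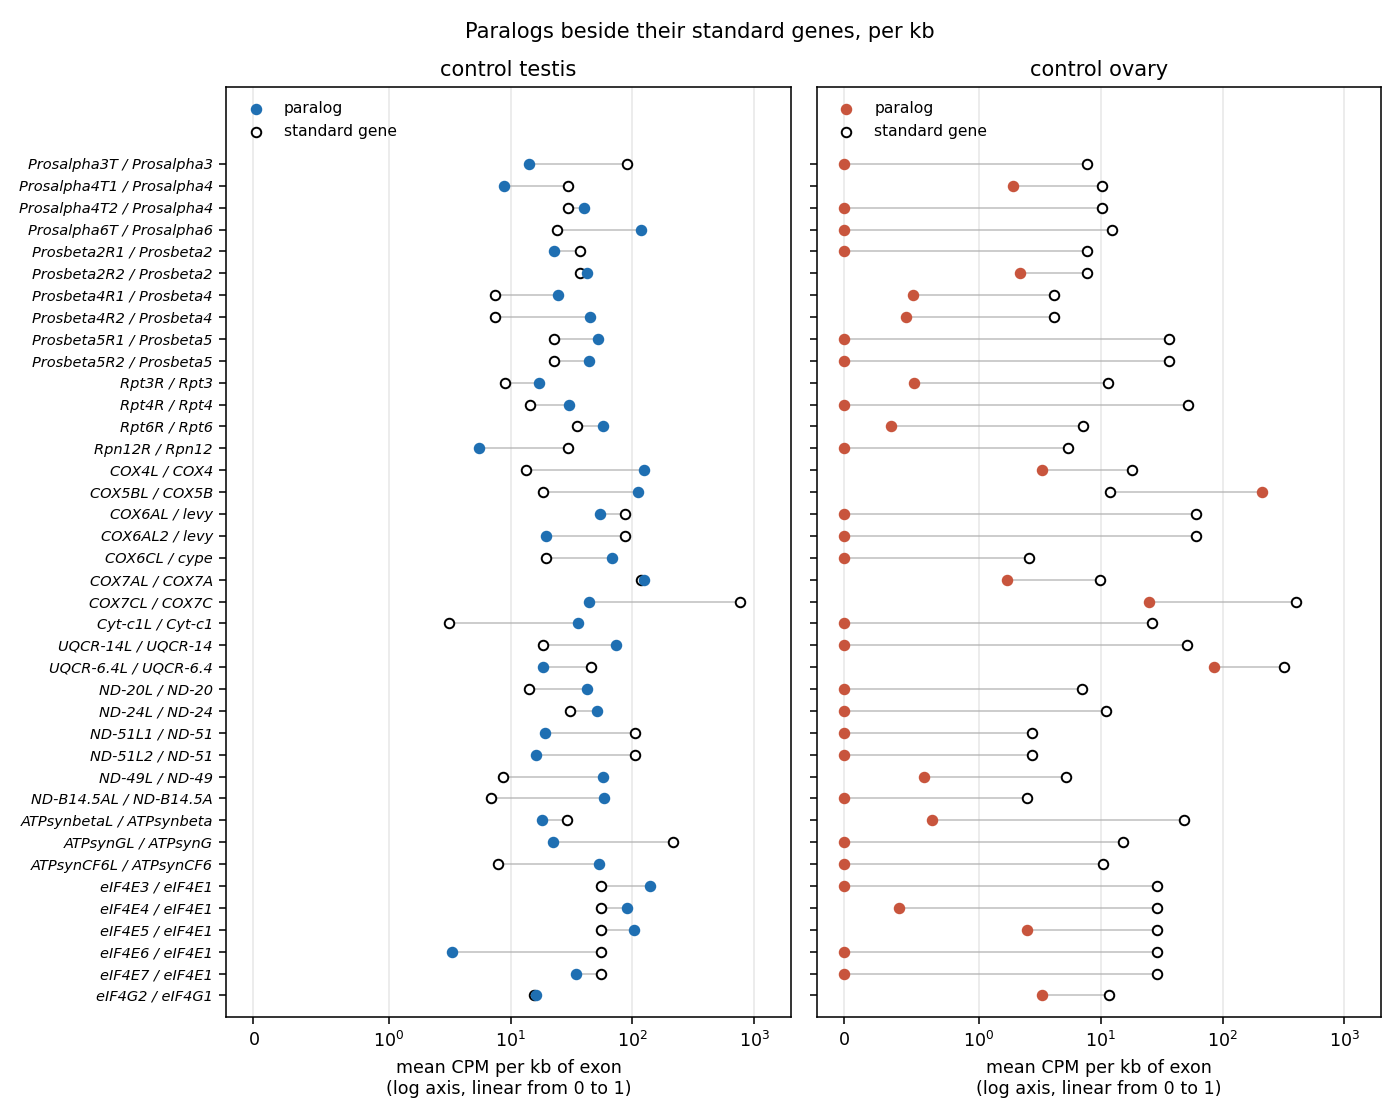
Mean CPM per kb of exon (log axis that is linear below 1) of 39 paralogs (filled) and of their standard genes (open), control testis in the left panel and control ovary in the right. The filled point lies to the right in 25 of 39 pairs in testes, and in ovaries in 1 pair, COX5BL.

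Tubulin isotypes gave 6 of 7 tested genes higher in testes and 0 higher in ovaries, beside 49.3% and 26.5% of all genes tested. gammaTub37C is known in the fly as the maternal gamma-tubulin, yet it had 35.9, 47.9 and 33.9 CPM in the testis libraries, against 0 counts in the ovary libraries, at least 31.8-fold higher (adjusted p = 1.63e-06). alphaTub67C, the maternal alpha-tubulin, had 2 counts over the 3 testis libraries and 46 over the 3 ovary libraries, too few for the test.

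Y-linked genes were seen in testes and had no read in ovaries. The share of counts on the Y was 0.391% ± 0.0577 in testes (SD, n = 3). All 24 tested Y-linked features were called higher in testes, beside 49.3% of all genes tested. Having 0 ovary counts, they passed the count filter through the testis alone, so this direction was fixed in advance. Of the 24, 19 were Su(Ste) repeats, the tandem copies that yield piRNAs against Stellate. Their reads may be shared among near-identical copies, so the values of single copies are uncertain; together the 34 repeats summed to 4331, 3166 and 3048 CPM in testes and 0 in ovaries. Of 12 listed Y fertility genes 4 could be tested, and all 4 were higher in testes, a direction fixed in the same way. kl-2, an axonemal dynein heavy chain, had 139, 112 and 124 CPM in the testis libraries, against 0 counts in the ovary libraries, at least 101-fold higher (adjusted p = 1.43e-08). The dynein heavy chain genes kl-5 and kl-3 had 35.1, 25.1 and 43.7 CPM and 23.4, 13.9 and 30 CPM in testes, with 0 counts in ovaries. ORY, another Y fertility gene, had 6 counts over the 3 testis libraries and was not tested.

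The tissue difference was not spread evenly over the chromosomes, and the X and the small chromosome 4 stood on the ovary side of the large autosomes. Counting only protein-coding genes without an opposite exon, with the scaling used throughout, 42.7% of 747 tested X-linked genes were higher in testes and 25.6% higher in ovaries, whereas on chromosomes 2 and 3 the shares were 65.9% and 10.6% of 3738 genes. The median log2 fold change was 0.56 on the X and 2.57 on chromosomes 2 and 3. On chromosome 4 it was 0.17 over 39 genes, of which 11 were higher in testes and 9 higher in ovaries. A count filter lets through genes that are high in either tissue, so the calls were also set against all annotated genes of this class: 19.7% of 1616 X-linked genes were called higher in testes and 11.8% higher in ovaries, against 30.0% and 4.80% of 8221 genes on chromosomes 2 and 3. Genes with a difference of 32-fold or more towards the testis, counted with the same bound as above, made up 9.91% of the tested X-linked genes and 20.6% of those on chromosomes 2 and 3. Which direction had more calls on the X depended on the scaling. When genes without an opposite exon were fitted alone, 28.4% of 792 X-linked genes were higher in testes and 41.4% higher in ovaries, with 5 and 17 of 39 on chromosome 4 and 52.5% and 20.3% on chromosomes 2 and 3. The medians in that fit were -0.59 on the X, -0.80 on chromosome 4 and 1.48 on chromosomes 2 and 3. With upper quartile scaling the X had 35.3% and 32.9%, chromosome 4 had 7 and 15 genes, and chromosomes 2 and 3 had 58.1% and 15.9%. In both fits the X and chromosome 4 again stood on the ovary side of chromosomes 2 and 3.

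Shares of counts gave a different order. Over all annotated protein-coding genes without an opposite exon, whether tested or not, the X held 10.1% ± 0.262 of counts in testes and 17.0% ± 0.666 in ovaries, and chromosome 4 held 0.430% ± 0.0382 in testes and 1.15% ± 0.0484 in ovaries (SD, n = 3 each). Arm 3L moved by more percentage points, with 22.5% ± 0.158 in testes and 39.8% ± 6.04 in ovaries, while 2L, 2R and 3R each held less in ovaries. Without CG7564, a gene of 3L that was chosen after its values were seen, arm 3L held 22.2% ± 0.115 in testes and 27.5% ± 3.53 in ovaries, and the X 10.1% ± 0.261 in testes and 20.6% ± 0.335 in ovaries. The tissues did not overlap in any of these shares (exact permutation p = 0.1 for each, the smallest possible).

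**Figure D4:**
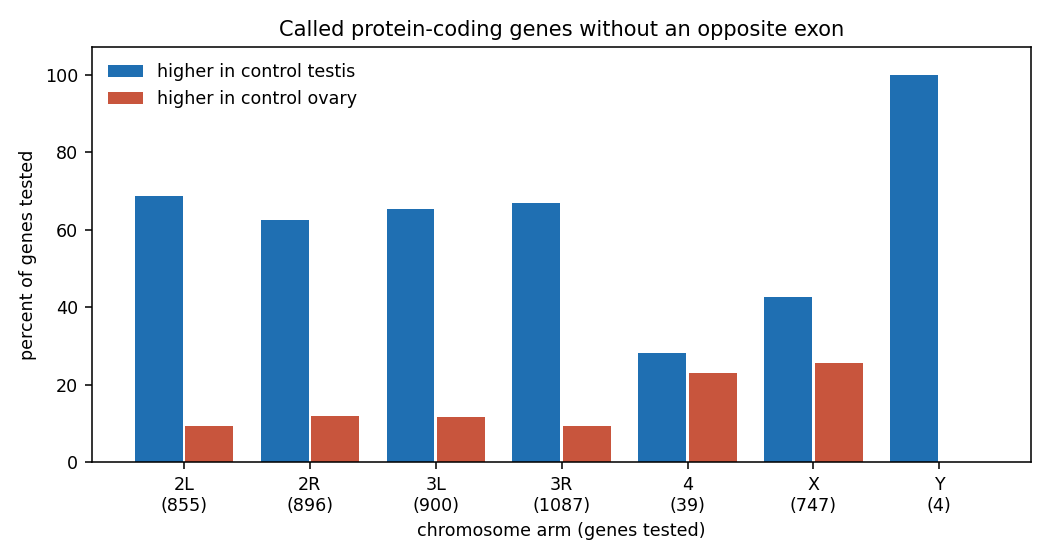
Percent of tested protein-coding genes without an opposite exon that were called higher in control testis (left bar) and in control ovary (right bar), by chromosome arm, with the number of genes tested under each arm. The X shows 42.7% and 25.6%, and chromosome 4 28.2% and 23.1%. The arms of chromosomes 2 and 3 show from 62.4% to 68.8% and from 9.36% to 11.8%. All 4 Y-linked genes are higher in testis, a direction fixed in advance because they had 0 counts in ovary.

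The genes most raised in the ovary, where given by library, had lower CPM than betaTub85D, loopin-1, S-Lap1 and Mst87F in testes. Not all sperm genes stood higher, since CG42259 in ovaries exceeded ProtA and ProtB in testes. Ranked by fold change among called protein-coding genes without an opposite exon, the first 12 included CG42259, Claspin, Caf1-180 and yellow-g2. CG42259 (chrX:1046224-1047009, plus strand) had 0 counts in the testis libraries, against 161, 220.5 and 252 CPM in the ovary libraries, at least 375-fold higher in ovaries (adjusted p = 1.28e-09). Claspin, an adaptor of the DNA replication checkpoint, had 0 counts in the testis libraries, against 56, 15.3 and 31.7 CPM in the ovary libraries, and Caf1-180, the large subunit of the chromatin assembly factor that acts behind replication forks, had 0, 0 and 0.429 CPM in testes, against 88, 49.7 and 71 CPM in ovaries. yellow-g2, needed for the vitelline membrane of the eggshell, had 0, 0 and 0.429 CPM in testes, against 12, 33.1 and 16.62 CPM in ovaries, an ovary over testis ratio of 110.0 (95% counting interval 18.8 to 4434). Every ovary library of these 4 genes lay above every testis library. The remaining genes of the 12 were FarO, CG7378, CG4324, hiro, CG11670, BaraB, CG42562 and CG3038, with log2 fold changes between -6.85 and -5.65. Of all 12, 5 lie on the X.

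Among genes of sex determination and the somatic gonad, ovo, Sxl and tj were higher in ovaries. ovo, a transcription factor required in the female germline, had 1.46, 2.79 and 1.29 CPM in the testis libraries, against 106, 68.8 and 90.7 CPM in the ovary libraries. Its log2 fold change was -5.53 ± 0.47 (SE, adjusted p = 1.76e-08), and its exons are opposite to another gene over a small stretch. Sxl, the switch of female development, had 0.732, 3.34 and 2.57 CPM in the testis libraries, against 51, 26.8 and 16.62 CPM in the ovary libraries, a log2 fold change of -3.73 ± 0.63 (SE, adjusted p = 4.10e-05). tj, a transcription factor of the somatic cells that contact the germline, had 0, 3.34 and 2.14 CPM in the testis libraries, against 56, 40.8 and 37.8 CPM in the ovary libraries and a log2 fold change of -4.46 ± 0.60 (SE, adjusted p = 3.95e-06). No testis library reached the lowest ovary library for any of the 3 genes. Of 11 tested sex determination genes, 4 were higher in ovaries, 1 (tra2) was higher in testes and 6 were not called, among them Phf7, known for male germline identity, with a log2 fold change of -0.02. The shares over all genes tested were 26.5% higher in ovaries and 49.3% higher in testes. Of 9 tested somatic gonad genes, 2 (tj and zfh1) were higher in ovaries and 4 higher in testes, which were chinmo, hh, CadN and dally, shares near those over all genes. chinmo, which keeps somatic cells of the testis male, had 79, 92.5 and 78 CPM in testes, against 2.0, 14 and 0 CPM in ovaries, a log2 fold change of 3.94 ± 0.61 (SE, adjusted p = 2.45e-05).

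Maternal RNAs divided between the tissues. Of 15 tested axis and germ plasm genes, 6 were higher in ovaries, 5 higher in testes and 4 not called, against 26.5% and 49.3% of all genes tested. osk, whose protein assembles the germ plasm, had 1.46, 3.34 and 2.14 CPM in the testis libraries, against 105, 42.1 and 51.4 CPM in the ovary libraries, a log2 fold change of -4.77 ± 0.53 (SE, adjusted p = 4.05e-07). The other 5 higher in ovaries were pgc, vls, trk, grk and pip, and all 6 have an opposite exon. Those higher in testes were gcl, spz, exu, nanos and bcd. Of these only bcd, the anterior determinant, lacks an opposite exon, with 53, 52 and 41 counts in testes and 7, 3 and 0 in ovaries (log2 fold change 2.81, adjusted p = 0.00103). Among 16 tested RNA regulators of the germline and of egg activation, 5 were higher in ovaries, 4 higher in testes and 7 not called. wisp, the cytoplasmic poly(A) polymerase of egg activation, had 0, 0 and 5.14 CPM in testes, against 28, 33.1 and 34.8 CPM in ovaries (log2 fold change -3.92 ± 0.79 (SE, adjusted p = 3.02e-04)). sqd, an hnRNP that binds grk RNA, had 22, 36.8 and 47.2 CPM in testes, against 443, 179.7 and 287 CPM in ovaries (-3.09 ± 0.37, adjusted p = 1.51e-06). orb, the CPEB protein of the germline of both sexes, went the other way, with 212, 269 and 299 CPM in testes, against 98, 44.6 and 46.9 CPM in ovaries (2.02 ± 0.33, adjusted p = 3.19e-05).

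Most eggshell genes had too few counts to be tested. Of 9 chorion genes, 2 passed the count filter: Cp7Fc was higher in ovaries, with 0.732, 0 and 0 CPM in testes, against 10, 15.3 and 18.1 CPM in ovaries (adjusted p = 1.29e-05), and Cp18 higher in testes, with 18.3, 13.9 and 20.1 CPM in testes, against 2.0, 6.37 and 0 CPM in ovaries (adjusted p = 0.00336). Vm26Aa, a main vitelline membrane protein, had 1 count over the testis libraries and 0 over the ovary libraries, which allows up to 1.23 CPM in ovaries, a limit that covers counting error only. Of 11 vitelline membrane and eggshell genes 2 were tested, yellow-g2, given above, and dec, an eggshell protein gene with an opposite exon over a short stretch. dec was higher in testes, with 154, 141 and 117 CPM in testes, against 35, 12.7 and 12.1 CPM in ovaries, a log2 fold change of 2.73 ± 0.41 (SE, adjusted p = 1.12e-05). yl, the oocyte receptor for yolk proteins, had 2.20, 1.11 and 0 CPM in the testis libraries, against 64, 19.1 and 39.3 CPM in the ovary libraries, a log2 fold change of -5.31 ± 0.75 (SE, adjusted p = 6.78e-06). The yolk protein genes split: Yp1, which has an opposite exon, had 0.732, 0.557 and 0 CPM in testes, against 28, 10.2 and 13.6 CPM in ovaries (adjusted p = 1.75e-05), and Yp3 had 82, 81.3 and 75.9 CPM in testes, against 15, 0 and 9.07 CPM in ovaries (adjusted p = 7.07e-05).

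All 13 tested synaptonemal complex and recombination genes were called, 8 higher in ovaries and 5 higher in testes, beside 26.5% and 49.3% of all genes tested. Males of this species do not recombine or form a synaptonemal complex. mei-218, required for most meiotic crossovers, had 0 counts in the testis libraries, against 13, 16.57 and 10.6 CPM in the ovary libraries, at least 24.7-fold higher in ovaries (adjusted p = 7.49e-06). The 5 higher in testes were sub, cona, c(3)G, spn-A and ord. c(3)G encodes the transverse filament of the synaptonemal complex and has an opposite exon; its log2 fold change was 2.89 (adjusted p = 4.13e-06). ord, a cohesion factor used in both sexes and without an opposite exon, stood at 2.27 (adjusted p = 0.00437). Of the 13 genes 11 have an opposite exon, so the values of most may hold reads of a neighbour.

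The piRNA pathway, which silences transposons in both gonads, had 9 of 22 tested genes higher in testes, 6 higher in ovaries and 7 not called, close to the 49.3% and 26.5% over all genes tested. Gasz, a mitochondrial scaffold of piRNA processing, had 137, 113 and 101 CPM in testes, against 3.0, 1.27 and 3.02 CPM in ovaries, a log2 fold change of 5.52 ± 0.47 (SE, adjusted p = 1.76e-08). zuc, the mitochondrial nuclease that cuts piRNA precursors, had 5.12, 5.01 and 4.29 CPM in testes, against 52, 66.3 and 33.2 CPM in ovaries (-3.39 ± 0.46, adjusted p = 3.80e-06) and tej, a Tudor protein of the nuage, had 8.05, 3.90 and 5.14 CPM in testes, against 51, 57.3 and 39.3 CPM in ovaries (-3.13 ± 0.45, adjusted p = 7.65e-06). For none of these 3 did the tissues overlap. piwi was lower in testes, at -2.24, while AGO3 and aub, at 0.47 and -0.06, were not called (adjusted p = 0.363 and 0.912).

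Of 17 tested replication and cell cycle genes, 6 were higher in ovaries and 4 higher in testes, beside 26.5% and 49.3% of all genes tested. Among genes without an opposite exon, stg, the mitotic Cdc25, had 2.20, 2.79 and 1.71 CPM in testes, against 34, 12.7 and 12.1 CPM in ovaries (-3.14 ± 0.63, adjusted p = 2.22e-04), and Mcm5, a subunit of the replicative helicase, had 154, 109 and 97.7 CPM in testes, against 19, 5.10 and 18.1 CPM in ovaries (3.07 ± 0.43, adjusted p = 5.44e-06). The 2 tissues did not overlap for either gene. Replication-dependent histones, whose mRNAs carry no poly(A) tail, gave no gene to test. In all 6 libraries, the ribodepleted testis ones among them, 108 of the 111 annotated copies were at 0. The cause was not tested. The replacement histone gene His3.3B, whose mRNA is polyadenylated, had 68.8, 52.4 and 85.7 CPM in testes, against 257, 177 and 153 CPM in ovaries (-1.50 ± 0.31, adjusted p = 3.25e-04).

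More ribosomal protein and muscle genes were higher in ovaries than in testes, whereas the shares over all genes tested were 26.5% and 49.3%. Both lists had their highest sum in control ovary replicate 1. Of 79 tested ribosomal protein genes, 37 were higher in ovaries, 6 higher in testes and 36 not called, with a median of -1.22. Their summed level was 5085 to 6043 CPM in testes, against 22437, 5807 and 8873 CPM in the ovary libraries. Without control ovary replicate 1 the calls were 27 higher in ovaries and 18 higher in testes, and the median was -0.20. RpL4 illustrates the spread, with 10.2, 11.1 and 16.3 CPM in the testis libraries, against 571, 77.7 and 193 CPM in the ovary libraries. RpL10Aa, a copy of RpL10Ab, ran against the rest, with 46.1, 102 and 113 CPM in testes, against 0 counts in ovaries (adjusted p = 2.67e-07). Of 14 tested muscle genes, 9 were higher in ovaries and 2 higher in testes, and without control ovary replicate 1 the counts were 7 and 2. The troponin T gene up had 12.4, 10.6 and 18.9 CPM in testes, against 802, 243 and 331 CPM in ovaries (-5.01 ± 0.46, adjusted p = 8.98e-08). The list summed to 743 to 806 CPM in testes, against 3421, 1248 and 1366 CPM in ovaries, and both groups stayed apart without that library. Act79B, an actin of tubular muscle, stood on the testis side, with 109.8, 134 and 111 CPM in testes, against 0 counts in ovaries (at least 96.6-fold higher, adjusted p = 1.68e-08).

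Other cells that a dissected gonad can carry along were traced by their markers. The calls are to be read beside the shares over all genes tested, 49.3% higher in testes and 26.5% higher in ovaries. Of 7 tested hemocyte markers, 4 were higher in ovaries, and 2 (srp and Pxn) were not called. The remaining marker, Hml, was higher in testes (log2 fold change 1.25, adjusted p = 0.0303). The list summed to 123 to 153 CPM in testes and 443 to 1066 CPM in ovaries, highest in replicate 1. Col4a1, a basement membrane collagen made by hemocytes and fat body, had 7.32, 22.3 and 9.43 CPM in testes, against 512, 90.5 and 113 CPM in ovaries (-4.19 ± 0.75, adjusted p = 5.63e-04). Fat body genes summed to 159 to 192 CPM in testes and 16.62 to 56.0 CPM in ovaries, with all 4 tested members higher in testes. Of 14 accessory gland and ejaculatory tract genes, 2 could be tested, and they went in opposite directions. Acp95EF, which has an opposite exon, was higher in ovaries (log2 fold change -1.39, adjusted p = 0.00128). Acp36DE, a seminal fluid protein, had 62.9, 60.7 and 180.0 CPM in testes, against 0, 2.55 and 0 CPM in ovaries, an unequal spread over the testis libraries. The sex peptide gene SP had 8 counts over the testis libraries and 0 over the ovary libraries. Neuronal genes gave 1 of 5 higher in testes and 2 higher in ovaries. How far such cells contribute to the tissue differences was not tested.

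Annotated antisense RNAs held 17.0% ± 1.93 of gene counts in testes and 47.2% ± 3.27 in ovaries (SD, n = 3 each, exact permutation p = 0.1, the smallest possible). Of 382 tested, 270 were higher in ovaries and 64 higher in testes, beside 26.5% and 49.3% of all genes tested. Whether the counts of an antisense RNA are its own reads or reads of the gene it faces was not tested. The most counted feature of the ovary was asRNA:CR45874, which lies opposite the ribosomal protein gene RpS9 over 68.73% of its exons. It had 2356, 1873 and 1749.8 CPM in the testis libraries, against 54362, 67774 and 78365 CPM in the ovary libraries, a log2 fold change of -5.07 ± 0.25 (SE, adjusted p = 3.30e-11), while RpS9 itself stood at -0.50 and was not called (adjusted p = 0.324). asRNA:CR45926, opposite Nap1, and asRNA:CR31144, opposite RpL3, followed, with log2 fold changes of -4.48 and -5.34. In testes the most counted feature was MstProx, annotated as protein-coding, whose exons lie in part opposite the sperm tail gene Mst84Da, with 42258, 35088 and 32681 CPM in the testis libraries, against 0 counts in the ovary libraries. asRNA:CR45046 came next, with 19363, 16708 and 15137 CPM in testes, against 25, 26.8 and 7.56 CPM in ovaries, opposite to another gene over 91.62% of its exons. None of these features had overlapping tissues.

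Antisense features and the genes they face often differed in direction, while their fold changes were positively correlated across pairs. Of 236 antisense RNAs that face another tested gene over at least 50% of their exons, 116 (49.2%) had a log2 fold change of the same sign as that gene. Both were called in the same direction in 82 pairs and in opposite directions in 87. Across the pairs Pearson's r was 0.45 and Spearman's rho 0.30, a description over features that share 6 libraries and, in part, reads. The median was -2.09 for these 236 antisense features and 1.48 for the genes opposite them. With medians on opposite sides of 0, the share of equal signs does not measure how far the pairs moved together.

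Of 11 tested snRNA, snoRNA, rRNA and tRNA features, 6 were higher in the ribodepleted testis libraries, near the 49.3% over all genes tested. snRNA:7SKa had 67.3, 62.9 and 84.4 CPM in testes, against 0 counts in ovaries (adjusted p = 1.20e-07), and all 3 tested snRNAs and 3 of 4 snoRNAs were higher in testes, against 0 of 2 rRNAs and 0 of 2 tRNAs. The large mitochondrial ribosomal RNA went the other way, with 101, 71.9 and 81.9 CPM in the testis libraries, against 2872, 2164 and 2063 CPM in the ovary libraries, a log2 fold change of -4.80 ± 0.26 (SE, adjusted p = 1.06e-10). RNA selection and tissue cannot be told apart for these genes. Long noncoding RNAs without the antisense label gave 111 of 201 higher in testes and 59 higher in ovaries, near the 49.3% and 26.5% over all genes tested. roX1, an RNA of the male dosage compensation complex in somatic cells, was lower in testes, with 12.4, 16.2 and 13.3 CPM in testes, against 70, 85.4 and 99.7 CPM in ovaries (-2.59 ± 0.35, adjusted p = 4.17e-06), and has an opposite exon. roX2 had 9 counts over the testis libraries and 1 over the ovary libraries. Mitochondrially encoded features as a whole held 0.531% ± 0.122 in testes and 0.620% ± 0.105 in ovaries (SD, n = 3 each), and the exact permutation test did not separate them (p = 0.4).

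The difference between the gonads recurred in the Tdrd5l mutant libraries, none of which belong to the control comparison. Age and RNA selection went with the tissue there too, so the agreement cannot tell their effects from that of the tissue. Of the 6381 called genes, 6182 were also tested between the 3 mutant testis and the 3 mutant ovary libraries, and 6110 of them (98.8%) had the same direction there. In that comparison 57.5% of 9182 genes were called, and 4662 genes were called in the same direction in both comparisons, 73.1% of those called in control gonads and 88.3% of those called in mutant gonads, while 3 were called in opposite directions. The test of the difference itself, the tissue by genotype interaction over all 12 libraries, called 3 of 10321 genes (0.0291%). So few calls do not show that the difference was the same in both genotypes. Mutant ovary replicate 2 stood apart, with 32.5% of its counts in genes without an opposite exon. The other mutant ovary libraries had 9.46% and 8.90%. How far such spread limited the interaction test was not tested.

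**Figure D5:**
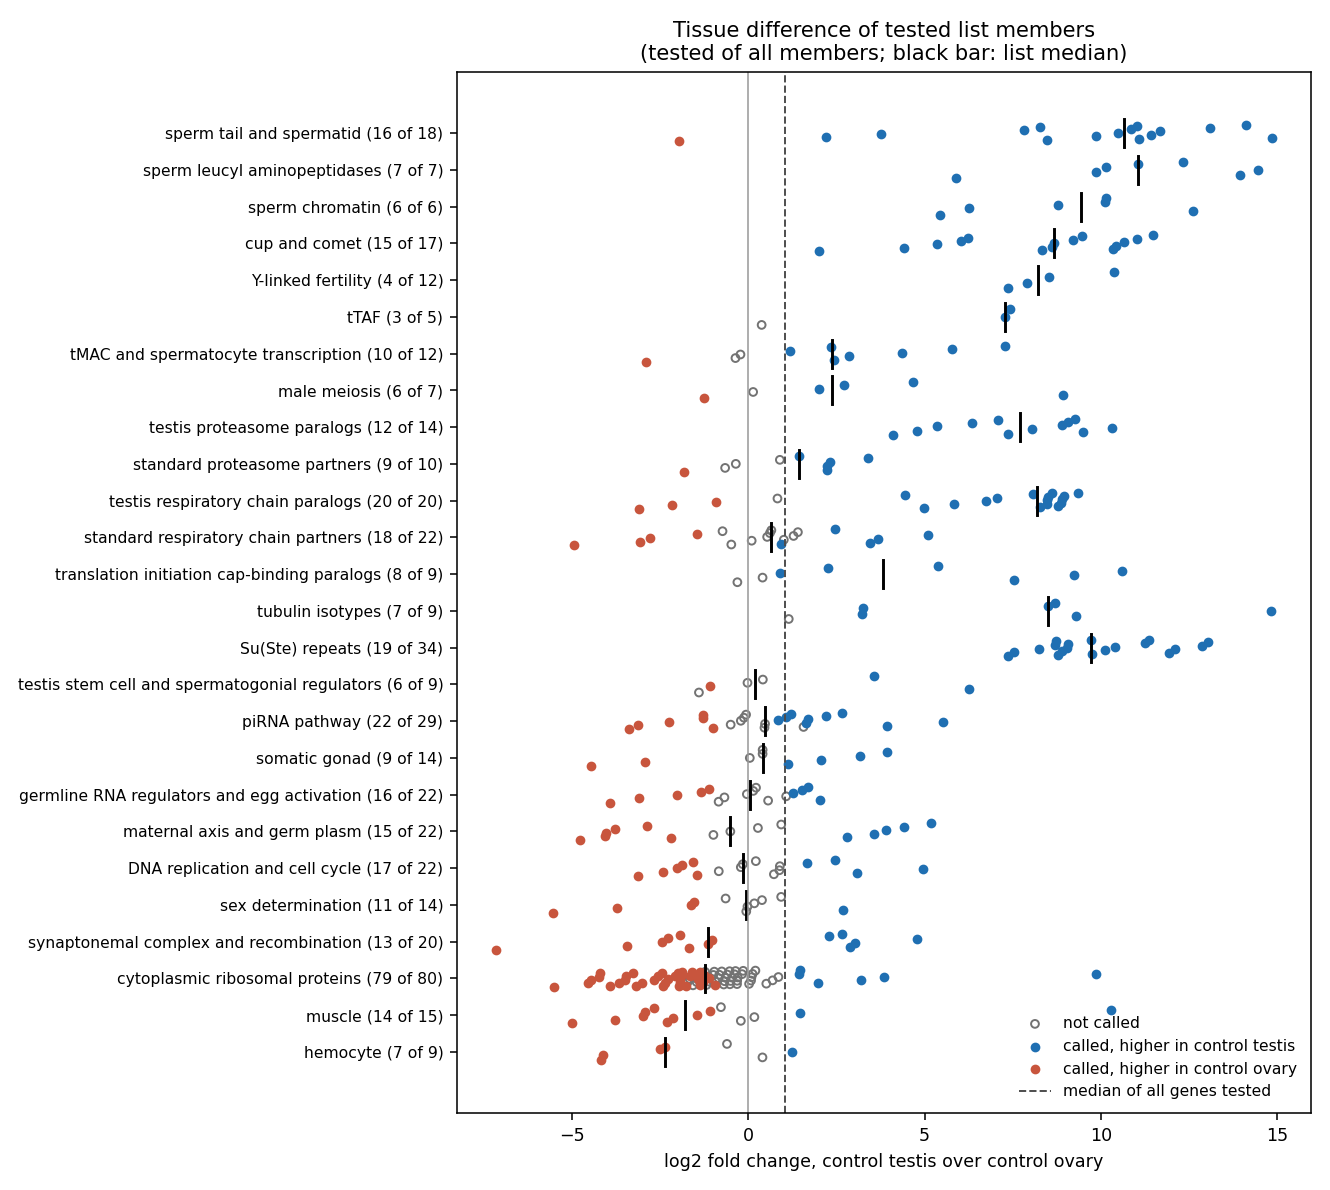
Log2 fold change of control testis over control ovary for the tested members of 26 gene lists, with 1 point per gene, filled where called (right of 0 higher in testis, left of 0 higher in ovary) and open where not, a black bar at each list's median and a dashed line at the median of all genes tested, 1.04. The sperm, cup and comet, Y-linked and paralog lists lie far to the right, while the muscle, hemocyte and ribosomal protein lists lie to the left.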

How the data were processed

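The authors deposited raw read counts per gene for each library; per the submitters' processing notes FastQC, TopHat2 2.1.1, HTSeq 0.9.1, DESeq and the BDGP6 build were used, and no strand setting was given. The lines that name no gene (96.8% to 98.1% of records) were left out. Of 17558 features, 17252 matched the Ensembl 115 annotation of BDGP6.54, which gave symbols, positions, exon lengths and opposite exons.

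Counts were filtered with filterByExpr (minimum count 10), scaled with TMM and tested with edgeR 4.0.16 (R 4.3.3), using the robust quasi-likelihood test, two-sided, with Benjamini-Hochberg adjustment over all genes tested and a threshold of 0.05. The interaction was fitted over all 12 libraries. Shares were compared with exact two-sided permutation tests. DESeq2 1.42.0, limma-voom (limma 3.58.1), other scalings and filters, a replicate block and leaving out each library were alternatives. The test was checked on simulated counts.

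Genes were named by rule: the 12 largest differences per direction among called protein-coding genes without an opposite exon, with separate libraries and at least 20 CPM in the higher tissue; up to 4 called and 2 uncalled members of each list; the 5 most counted features per tissue; and the 3 most counted of each noncoding class. Others were chosen after their values were seen. Of 460 listed symbols 435 matched. The members and lists were chosen with earlier results of these data known. Intervals and floors cover counting error only.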

Additional observations from a re-analysis of the deposited data

Results flagged for a closer look

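The tissue by genotype interaction over all 12 libraries asked whether the testis over ovary difference of control gonads differs from that of Tdrd5l mutant gonads, and it called 3 genes. CG6414, whose exons lie opposite an antisense RNA over most of their length, had an interaction of 5.07 on the log2 scale (control minus mutant difference, adjusted p = 0.00629). It had 122, 99 and 134 counts in control testes and 76, 58 and 21 in control ovaries, and 11, 8 and 3 counts in mutant testes and 79, 130 and 67 in mutant ovaries. The interaction of stops was -6.46 (adjusted p = 0.00387), with 2, 2 and 8 counts in control testes and 92, 100 and 85 in control ovaries, against 12, 24 and 9 in mutant testes and 4, 8 and 1 in mutant ovaries. For lncRNA:CR45179 it was 5.41 (adjusted p = 0.0393), with 14, 28 and 40 counts in control testes and 4, 0 and 1 in control ovaries, against 33, 43 and 32 in mutant testes and 72, 118 and 84 in mutant ovaries.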

How the results depend on the processing

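Across scalings, filters, tools and left-out libraries the number of called genes stayed within 5289 (2-fold threshold) and 8035 (no filter), apart from the fit restricted to genes without an opposite exon, which tested fewer genes and called 3461, with 2294 higher in testes and 1167 higher in ovaries. Leaving out 1 library gave 5869 to 7147 calls, 3799 to 4818 of them higher in testes and 2054 to 2396 higher in ovaries. Of the 6381 called genes, 5811 were called in the same direction with upper quartile scaling, where 1 changed sign. A fit with the replicate number as a block called 5904, with 3916 and 1988. Same-numbered testis and ovary libraries did not deviate together (correlations of -0.10, -0.02 and -0.04), so the numbers do not pair the samples. The interaction called 6 genes with limma-voom and 1 to 6 with 1 library left out: 1 without mutant testis replicate 2 or 3, 6 without mutant ovary replicate 1 or 2 and 5 without mutant ovary replicate 3. Among genes without an opposite exon the testis minus ovary difference in share was -3.16 percentage points for protein-coding genes and 1.36 for noncoding RNAs, the reverse of that over all genes; the cause was not tested.

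Of 165 named genes that were called, 159 were called under every alternative that tested them; stwl, His2Av, CkIIbeta, Acp95EF, Lsp1gamma and nSyb were not. Uncalled values, most of them near 0, and list medians changed sign. With upper quartile scaling the medians were -0.44 for spermatogonial regulators, -0.57 for germline RNA regulators, -0.21 for the somatic gonad and -0.16 for the piRNA pathway, and the log2 fold changes were -0.22 for mei-P26, -0.26 for sa, -0.52 for twe, -0.21 for eIF4G1, -0.23 for eya, -0.21 for Fas3, -0.22 for Pxn and -0.45 for mt:tRNA:Cys-GCA. With genes without an opposite exon, over the members tested in both fits, the medians of the same first 3 lists were -0.90, -0.82 and -0.34, mei-P26 was at -0.37, sa at -0.44, eIF4G1 at -0.37, eya at -0.42 and Fas3 at -0.34. DESeq2 size factors and library size alone gave medians of 0.071 and 0.080 for sex determination and of 0.0093 and 0.068 for variant histones, with His3.3A at 0.0093 and 0.068, and 0.0090 in DESeq2. mt:tRNA:Tyr-GTA was at 0.041 with library size alone, and twe at -0.054 among nuclear protein-coding genes. With 1 library left out, Stat92E ranged over -2.05 to 0.78, mip120 -0.53 to 0.00068, twe -0.14 to 0.45, His3.3A -0.29 to 0.10, Pxn -0.077 to 0.99, mt:tRNA:Tyr-GTA -0.32 to 0.17 and mt:tRNA:Cys-GCA -0.18 to 0.59. Without control ovary replicate 1 the dosage compensation median was 0.67 over 6 tested members, against -1.66 over 3, and that of DNA replication 0.02 over 20, against -0.16 over 17. Depth limits what can be said of genes under about 10 counts per library, which includes most eggshell genes.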

Other observations

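Several abundant features outside the lists belonged to one gonad. The ribosomal pseudogene 28SrRNA-Psi:CR40741 on the X had 10618, 5526 and 14393 CPM in testes, against 4.0, 5.10 and 10.6 CPM in ovaries, a log2 fold change of 10.66 ± 0.48 (SE, adjusted p = 5.32e-11), with a wide spread among the ribodepleted testis libraries. The pseudogene CR43100 had 913, 819 and 781 CPM in testes and 0 counts in ovaries. All 3 tested hairpin RNA features were higher in testes, beside 49.3% of all genes tested, with 816 counts over the testis libraries and 27 over the ovary libraries. Of 3 tested genes of the Stellate list, CkIIbeta2 and Ssl had 0 counts in ovaries and were higher in testes (adjusted p = 2.53e-06 and 3.85e-05). The third, CkIIbeta, was higher in ovaries (log2 fold change -0.88, adjusted p = 0.0278), a call lost in 12 of 18 alternatives. The shares over all genes tested were 49.3% and 26.5%. In the ovary, CG7564 was the most counted protein-coding gene without an opposite exon, with 1298, 1132 and 1053 CPM in testes, against 19313, 25387 and 20650 CPM in ovaries, a log2 fold change of -4.23 ± 0.23 (SE, adjusted p = 1.05e-10).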
